A study of Mus musculus with 7 samples.

Results

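The 10 genes described here are products of intestinal goblet cells and the factors that set the secretory fate, and they were taken from the duodenal expression table by symbol, 10 of its 14795 genes. They were the secreted mucus components Muc2, Fcgbp, Clca3, Zg16, Tff3 and Spink4, the mucin folding factor Agr2, and the fate factors Atoh1, Spdef and Gfi1. The goblet gene now called Clca1 is listed in the table as Clca3, whereas the row listed as Clca1 is an older symbol of Clca3a1. Whole duodenum was sequenced from 3 Ppara lox/lox controls and 4 Ppara I-KO mice, all male and of the C57BL/6 strain per the labels and the study's methods. In Ppara I-KO mice (Ppara lox/lox;Villin-Cre) a Cre recombinase under the Villin promoter, which is active throughout the intestinal epithelium including goblet cells, removes the floxed part of Ppara. The controls were littermates that carried the same floxed alleles without Cre, so that a group with Cre and without floxed alleles was not part of the comparison. The study's methods place these mice on HFD for 8 weeks, a diet that both groups shared. Sacrifice followed 6 h of fasting and 6 h of refeeding per the labels, which do not name a diet. The age of these mice is not given in the sources used here. PPARα is a nuclear receptor that is activated by fatty acids, and the comparison asks how goblet cell transcripts stand in the epithelium that lacks it.

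Goblet cells fill granules with the gel-forming mucin MUC2, which is folded in the endoplasmic reticulum, decorated with O-glycans in the Golgi and released to form the mucus that covers the villi. Cells leave the crypt for the secretory lineages when Notch signalling is low and ATOH1 is present. GFI1 then keeps the cells on the goblet and Paneth path, and SPDEF drives goblet maturation and the genes of the granule.

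The promoters are shown for 2 pairs of genes whose levels moved closely together between libraries of the same group (r above 0.9) and whose sequences were at hand, Muc2 with Fcgbp and Agr2 with Spdef. The sequences are the 250 bases before the RefSeq start in GRCm38.p6 (mm10), written 5′ to 3′ on the strand of the gene. RefSeq windows were matched for 6 of the 10 genes, and none were matched for Clca3, Zg16, Tff3 and Spink4. Capitals mark matches to 6 motifs searched on both strands. TATAAA has the letters of the TATA box, and CAGCTG and CAGATG are E-boxes, bound by basic helix-loop-helix factors such as ATOH1. TGTTTAC and TATTTAC are forkhead motifs, and AGGTCA is the half-site of nuclear receptors such as PPARα. Only exact letters were matched, at any position, so a marked TATAAA need not be a TATA box and near forms are not marked. The motifs were chosen with the sequences in view.
Muc2, chr7:141690090-141690339, plus strand: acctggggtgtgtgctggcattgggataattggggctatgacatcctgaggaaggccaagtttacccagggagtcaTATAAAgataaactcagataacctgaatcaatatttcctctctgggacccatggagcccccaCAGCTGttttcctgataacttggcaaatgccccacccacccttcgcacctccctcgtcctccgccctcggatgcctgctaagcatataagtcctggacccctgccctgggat
Fcgbp, chr7:28070986-28071235, plus strand: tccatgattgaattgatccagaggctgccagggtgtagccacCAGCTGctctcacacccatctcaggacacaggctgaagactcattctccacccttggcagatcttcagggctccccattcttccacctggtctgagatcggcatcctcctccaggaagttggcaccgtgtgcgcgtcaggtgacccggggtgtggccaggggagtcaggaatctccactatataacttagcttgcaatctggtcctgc
Agr2, chr12:35992675-35992924, plus strand: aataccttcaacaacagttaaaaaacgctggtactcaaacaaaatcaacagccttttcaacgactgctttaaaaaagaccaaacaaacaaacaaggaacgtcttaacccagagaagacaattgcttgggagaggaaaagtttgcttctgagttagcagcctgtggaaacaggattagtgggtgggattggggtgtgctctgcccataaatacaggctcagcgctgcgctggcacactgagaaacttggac
Spdef, chr17:27728952-27729201, minus strand: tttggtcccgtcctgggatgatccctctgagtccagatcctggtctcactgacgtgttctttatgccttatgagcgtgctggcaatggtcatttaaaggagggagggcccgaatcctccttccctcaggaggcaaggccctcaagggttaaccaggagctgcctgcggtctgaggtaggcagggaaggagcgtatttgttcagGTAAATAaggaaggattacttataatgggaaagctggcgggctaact
The Muc2 window held TATAAA at bases -174 to -169 from the start and CAGCTG at -112 to -107. The Fcgbp window held CAGCTG at -208 to -203. In the Spdef window the reverse complement of TATTTAC lay at -47 to -41, and the Agr2 window held none of these letters. Of 32851 windows of the same length, TATAAA was found in 12.4%, CAGCTG in 13%, CAGATG in 14.4%, TGTTTAC in 3.17%, TATTTAC in 2.73% and AGGTCA in 14.0%. The CAGCTG match shared by Muc2 and Fcgbp was thus a common one. No AGGTCA was found in the windows of any of the 6 genes, which says only that these letters were not in them. These matches describe letters and were not tested as binding sites.

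The libraries held 20745155 to 25865823 reads on the listed genes, as taken from the steps of their low values, and 1 read was worth 0.0393 to 0.0530 in the unit of the table. This unit is CPM on an adjusted library size (adjusted CPM), and all levels below are in it. The epithelial markers Epcam, Cdh1, Vil1, Krt8, Krt18 and Krt20 summed to 10170 to 12280 in lox/lox and 10730 to 13520 in I-KO. The duodenal genes Pdx1, Gata4, Cybrd1 and Slc40a1 were measured in all libraries, and each was lowest in lox/lox 3. Pdx1 was 13 there against 18.15 to 25.45 in the other libraries, and Gata4 was 141.24 against 153.73 to 177.04. Cybrd1 was 16.93 in lox/lox 3 against 56.08 to 78.49, and Slc40a1 was 49.27 against 103.31 to 162.27. How this bears on the goblet genes of lox/lox 3 was not tested. Stomach and Brunner gland genes were near 0, with the 4 measured members summed at 2.00 to 5.26 over all libraries. Ppara itself was 53.42, 49.29 and 63.18 in lox/lox and 33.05, 40.58, 47.51 and 69.90 in I-KO. The groups overlapped, and since the reads of the whole gene are counted, this value does not check the removal of the floxed part. Pancreatic acinar transcripts stood apart in I-KO 1, where 19 acinar genes summed to 543.6 against 81.46 to 179.6 in the other libraries, the highest of them in lox/lox 2.

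No difference between Ppara I-KO and lox/lox duodena was detected for any of the 10 goblet genes. All 10 passed the filter on low values (above 1 in at least 3 libraries), and 0 of 10 had an adjusted p below 0.05 in limma over 13399 genes, where 0.0299% of all genes passed. At an unadjusted limma p below 0.05 the count was also 0 of 10, against 4.74% of all genes, and the values of the 2 groups overlapped for all 10, against 6.19% of genes in which they did not. The smallest p of an exact two-sided permutation test, over the 35 ways to choose 3 of the 7 libraries, was 0.0857, for Gfi1, where the smallest possible is 0.0286. The median log2 fold change of the 10 genes was -0.0004, beside 0.0017 over all genes tested. The 95% confidence intervals reached 0.249 to either side of the estimate at the median, from 0.196 for Gfi1 to 0.463 for Spink4, so that changes of up to 0.52 down and 0.66 up on the log2 scale lay within the intervals of single members. Adding 1 before the log shrinks fold changes and intervals of genes at low levels. For Gfi1 the log2 fold change was -0.139 with 1 added and -0.151 with 0.5 added. In whole tissue, a change in the number of goblet cells and a change in their RNA per cell cannot be told apart. The study reports that the frequency of goblet cells did not differ in Ppara I-KO mice.

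**Figure D1:**
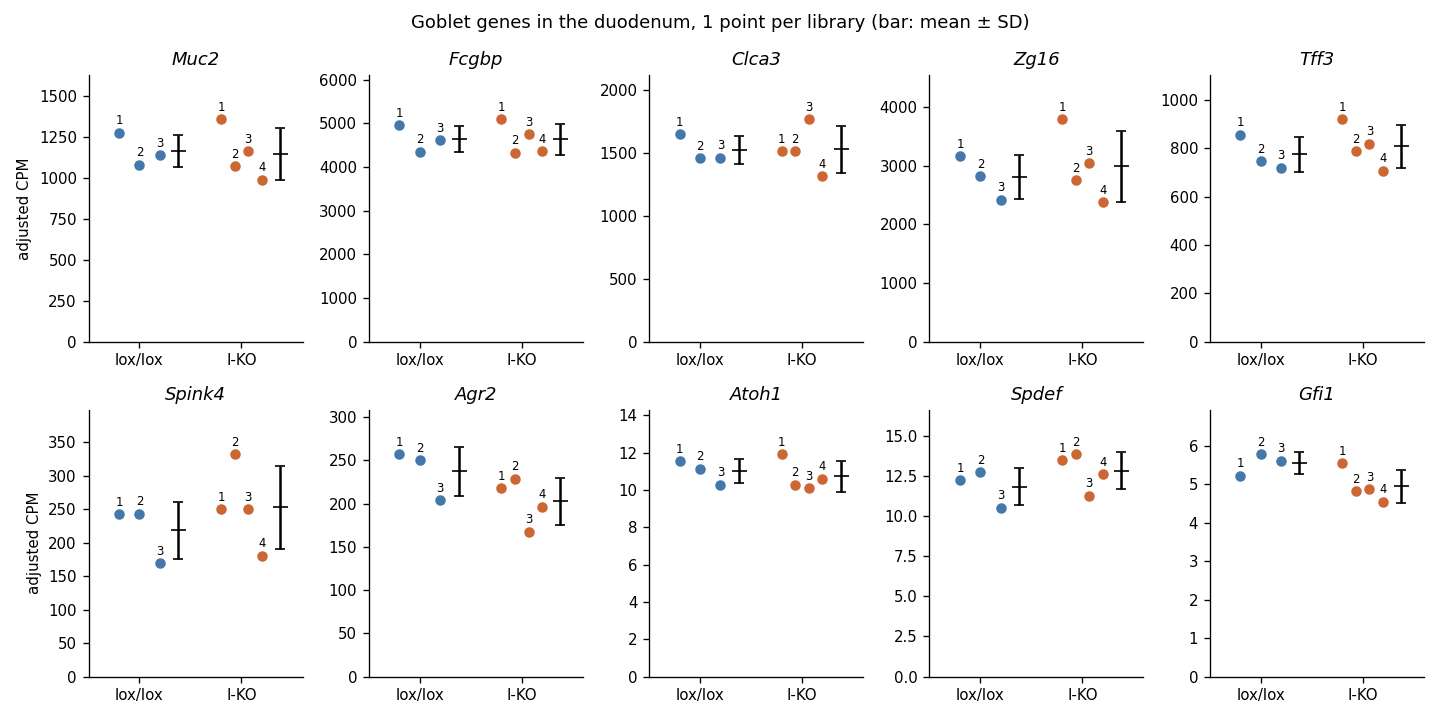
Adjusted CPM of the 10 goblet genes, with 1 point per library numbered by replicate, lox/lox in blue and I-KO in orange; the bar beside each group is its mean ± SD (n = 3 and n = 4), and each axis starts at 0. The 2 groups overlap in all 10 panels, and 5 of the genes have their highest point in I-KO 1.

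Muc2, the gel-forming mucin that builds the scaffold of intestinal mucus, was 1274.89, 1080.72 and 1137.41 in lox/lox 1 to 3 and 1357.20, 1070.48, 1162.21 and 988.37 in I-KO 1 to 4. The highest and the lowest library were both I-KO, with the 3 controls between them. The means were 1164 ± 99.9 (SD, n = 3) and 1145 ± 159 (SD, n = 4), a log2 fold change of -0.03 ± 0.12 (SE) with a limma adjusted p of 0.987. The interval of the fold, 0.811 to 1.18, spans a loss and a gain of like size. Muc2 lies on the plus strand of chromosome 7 at 141690340 to 141754693 (GENCODE M21, GRCm38).

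Fcgbp, a large mucus protein of von Willebrand repeats that is packed and secreted with MUC2, was 4948.15, 4345.97 and 4608.64 in lox/lox and 5089.98, 4328.67, 4752.29 and 4368.01 in I-KO. The controls again lay within the range of the I-KO libraries. The means were 4634 ± 302 (SD, n = 3) and 4635 ± 359 (SD, n = 4), and the log2 fold change was -0.001 ± 0.092 (SE; limma adjusted p = 0.999). Fcgbp had a coefficient of variation (CV) of 6.64% over the 7 libraries, and its highest library was 1.18-fold above its lowest. Its interval of the fold, 0.865 to 1.15, was the narrowest among the secreted components.

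Clca3, the secreted metalloprotease that acts on the MUC2 network, was 1651.03, 1459.80 and 1465.08 in lox/lox and 1514.92, 1519.04, 1770.65 and 1320.47 in I-KO. It was the only one of the 10 with its highest value in I-KO 3. The log2 fold change was 0.0002 ± 0.11 (SE; limma adjusted p = 0.9995). Of its paralogs, 4 of the 5 measured rows of the Clca family passed the filter and 0 of 4 passed the test. Of these, Clca6 had the highest level, 1402.65 to 1731.45 in lox/lox and 1315.84 to 1958.71 in I-KO. Clca2 had the smallest limma p of the family, 0.197, with a log2 fold change of -0.37 at levels of 3.98 to 9.74. The names of these rows are those of the table and can differ from the current symbols, as for Clca3. Paralogs of this family resemble each other in sequence, and how reads shared between them were counted is not given in the sources used here.

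Zg16, a lectin that binds bacterial cell walls in mucus and is also a protein of the pancreatic zymogen granule, was 3161.80, 2823.89 and 2418.93 in lox/lox and 3787.82, 2750.62, 3036.62 and 2371.51 in I-KO. I-KO 1 was highest and I-KO 4 lowest. The means were 2802 ± 372 (SD, n = 3) and 2987 ± 600 (SD, n = 4), with a log2 fold change of 0.08 ± 0.16 (SE; limma adjusted p = 0.977). I-KO 1 was the library with the acinar transcripts. In the 5 libraries other than lox/lox 2 and I-KO 1, 13 of the 19 acinar genes were at most 0.71, and Zg16 was 2371.51 to 3161.80. These 13 were picked as those at or below 1 in these 5 libraries. Other acinar genes of the list were present there, with Pnliprp2 at 47.15 to 83.38, Clps at 16.21 to 28.79 and Cela1 at 6.36 to 8.10. Lox/lox 2, second in the acinar sum, was in the middle of the range of Zg16. Without I-KO 1 the log2 fold change of Zg16 was -0.04, and without both lox/lox 2 and I-KO 1 it was -0.03. What the acinar transcripts add to the Zg16 level of I-KO 1 was not tested.

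Tff3, the trefoil peptide that goblet cells release with mucus and that aids epithelial repair, was 857.04, 748.19 and 720.04 in lox/lox and 920.20, 787.29, 819.46 and 707.03 in I-KO. The I-KO libraries stood in the same order as for Zg16 and Muc2. The log2 fold change was 0.06 ± 0.11 (SE; limma adjusted p = 0.976). Without I-KO 1 it was -0.0058.

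Spink4, a Kazal-type peptide of goblet granules, was 243.04, 243.65 and 169.49 in lox/lox and 250.06, 332.64, 250.27 and 180.85 in I-KO. Lox/lox 3 and I-KO 4 were low, I-KO 2 was high, and the other 4 libraries were nearly equal. It was the most variable of the 10 genes, with a CV of 22.5% and a 1.96-fold range, and its log2 fold change of 0.20 ± 0.20 (SE) was the largest increase among them and did not pass the test (limma adjusted p = 0.954). The value of I-KO 2 stood beside its Paneth cell genes. All 8 measured Paneth genes, which include Lyz1 and the defensins Defa17 and Defa22, were highest in I-KO 2, where they summed to 3012 against 1115 to 2269 in the other libraries. Without I-KO 2 the log2 fold change of Spink4 was 0.06, and without lox/lox 3 it was 0.03. The part of Paneth cells in the Spink4 value of I-KO 2 was not tested, and I-KO 4, with a Paneth sum of 2269, had the second lowest Spink4.

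**Figure D2:**
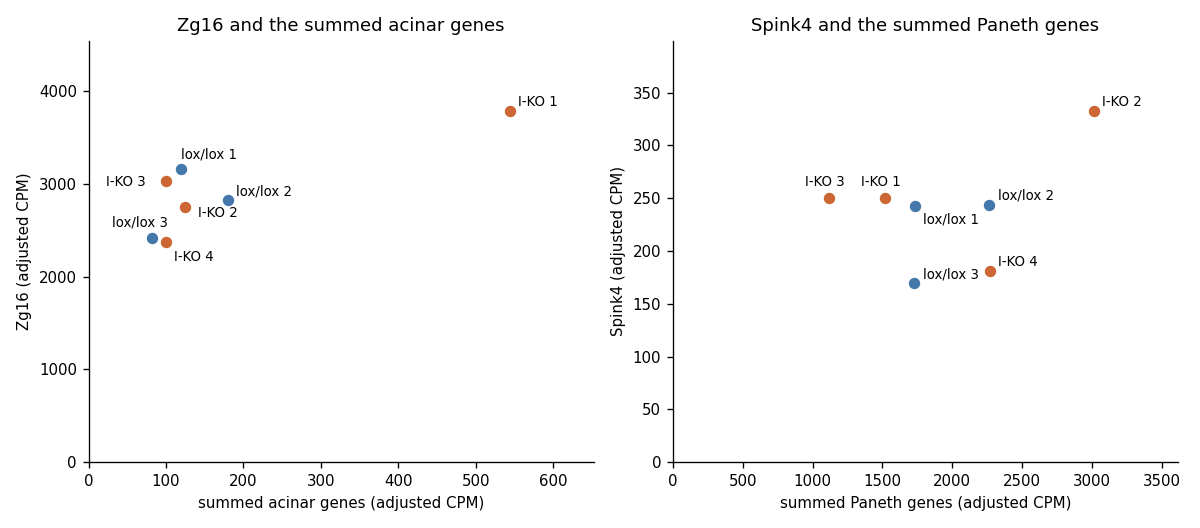
Left, Zg16 against the summed pancreatic acinar genes; right, Spink4 against the summed Paneth genes, both in adjusted CPM with 1 labelled point per library, lox/lox in blue and I-KO in orange. I-KO 1 stands apart in acinar genes (543.6) and I-KO 2 in Paneth genes (3012), and each is the highest library of the goblet gene plotted.

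Together the 6 secreted components took 1.08% to 1.16% of the column total in lox/lox and 1.02% to 1.26% in I-KO. I-KO 1 was at the upper end and I-KO 4 at the lower end. The summed level was 11120 ± 888 (SD, n = 3) and 11360 ± 1287 (SD, n = 4), a difference smaller than either spread.

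Agr2, the protein disulfide isomerase of the endoplasmic reticulum that is needed to fold MUC2, was 257.31, 250.08 and 204.18 in lox/lox and 218.07, 228.98, 167.59 and 196.48 in I-KO. All but lox/lox 3 of the controls lay above every I-KO library, and lox/lox 3 lay below 2 of them. The means were 237 ± 28.8 (SD, n = 3) and 203 ± 27.1 (SD, n = 4). The log2 fold change of -0.23 ± 0.13 (SE) had the smallest unadjusted limma p of the 10 genes, 0.114, with an adjusted p of 0.954 and an exact permutation p of 0.2. Its interval ran from -0.52 to 0.07, so a fold of 0.696 was as much within it as a fold of 1.05. Without lox/lox 3 the log2 fold change was -0.33, with an unadjusted limma p of 0.0408 and an adjusted p of 0.930.

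The fate factors were low, and the spread of Atoh1 and Gfi1 was close to counting error. Atoh1, the basic helix-loop-helix factor that commits progenitors to the secretory lineages, was 11.55, 11.15 and 10.29 in lox/lox and 11.93, 10.29, 10.12 and 10.62 in I-KO. The log2 fold change was -0.03 ± 0.09 (SE; limma adjusted p = 0.981). Its CV over the 7 libraries was 6.47%, beside 6.39% that counting error alone would give at its mean of about 245 reads.

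Spdef, the ETS factor of goblet maturation, was 12.24, 12.74 and 10.53 in lox/lox and 13.51, 13.87, 11.28 and 12.61 in I-KO. I-KO 1 and I-KO 2 lay above all controls and lox/lox 3 lay below all other libraries. The log2 fold change was 0.11 ± 0.10 (SE; limma adjusted p = 0.954), with an interval from -0.12 to 0.34. The CV was 9.50%, where counting error gives 5.97%.

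Gfi1, the zinc finger repressor that holds secretory progenitors away from the enteroendocrine path, was 5.23, 5.79 and 5.62 in lox/lox and 5.56, 4.83, 4.87 and 4.55 in I-KO. I-KO 2 to 4 lay below all controls, whereas I-KO 1 lay among them. The means were 5.55 ± 0.287 (SD, n = 3) and 4.95 ± 0.429 (SD, n = 4), with a log2 fold change of -0.14 ± 0.09 (SE; limma adjusted p = 0.954). It rested on about 92 reads in the library with the fewest, and its CV of 9.02% was no larger than the 9.21% of counting error. Without I-KO 1 the log2 fold change was -0.19, with an unadjusted limma p of 0.0475 and an adjusted p of 0.981.

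**Figure D3:**
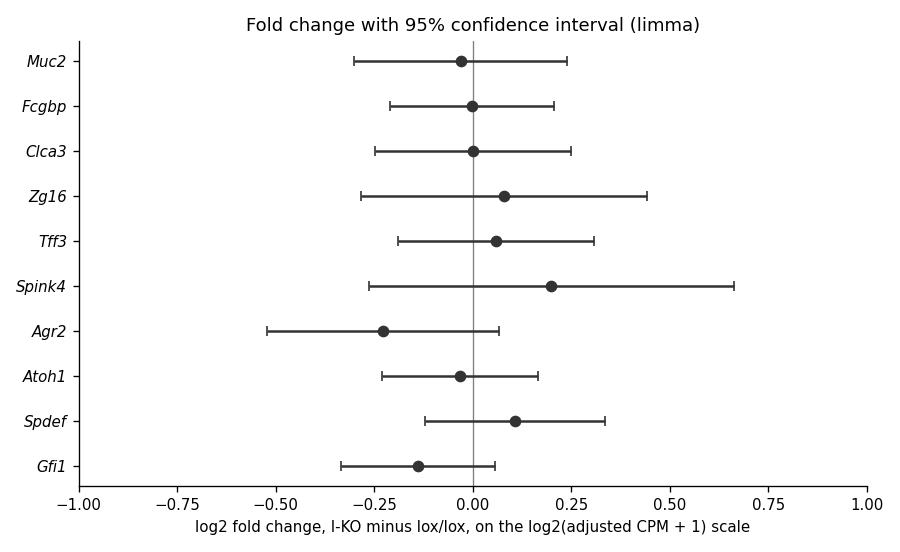
Log2 fold change (I-KO minus lox/lox, on the scale of log2(adjusted CPM + 1)) of the 10 goblet genes as points, with the 95% confidence interval of limma as bars. All 10 intervals include 0, and the widest is that of Spink4, from -0.26 to 0.66.

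Of the 10 genes, 5 had a higher and 5 a lower mean in I-KO with the deposited scaling, and this split depended on the scaling: 6 were lower with equal column totals, and 9 were lower when values were scaled to the summed epithelial markers, with Spink4 as the exception. Under the last scaling the median of all genes was -0.108 on the log2 scale, against 0.0017 with the deposited scaling. Of all genes, 80.6% were lower under it, 60.6% with equal column totals and 49.4% with the deposited scaling. No member passed the adjusted threshold under any of these scalings.

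The highest and lowest libraries were shared by several of the genes. I-KO 1 held the highest value of 5 of the 10 genes (Muc2, Fcgbp, Zg16, Tff3 and Atoh1), and I-KO 4 the lowest value of 5 (Muc2, Clca3, Zg16, Tff3 and Gfi1). The median CV over the 7 libraries was 9.61%, and it was 10.03% with equal column totals and 10.8% when scaled to the epithelial markers. Over the 7 libraries, as deviations from the mean of each group, 5 of the 45 pairs of genes had a Pearson r above 0.9 and 5 had one below 0, with a median of 0.498. For each pair a permutation p was taken over the 144 exchanges of libraries within groups, and after Benjamini-Hochberg adjustment over the 45 pairs 0 passed, the smallest adjusted value being 0.156 for r.
Muc2 and Fcgbp, whose promoters are printed above, had an r of 0.951 (permutation p = 0.0139, Spearman's rho 0.857 with permutation p = 0.0833), and an r of 0.976 without the 2 libraries farthest from the median of Muc2. Zg16 and Tff3 had an r of 0.97 (permutation p = 0.0139, rho 0.964 with permutation p = 0.0139), and 0.915 without the farthest 2. Agr2 and Spdef had an r of 0.977 (permutation p = 0.0139, rho 0.857 with permutation p = 0.0833), and 0.842 without the farthest 2. Agr2 and Spdef were lowest in the same libraries of each group, lox/lox 3 and I-KO 3, whereas Muc2, Zg16 and Tff3 were above their group mean in I-KO 3. Clca3 and Spdef had the lowest r of all pairs, -0.271 (permutation p = 0.625, rho -0.179 with permutation p = 0.778), and 0.237 without the farthest 2. All genes of a library share its RNA and its scaling, and these values describe 7 mice.

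**Figure D4:**
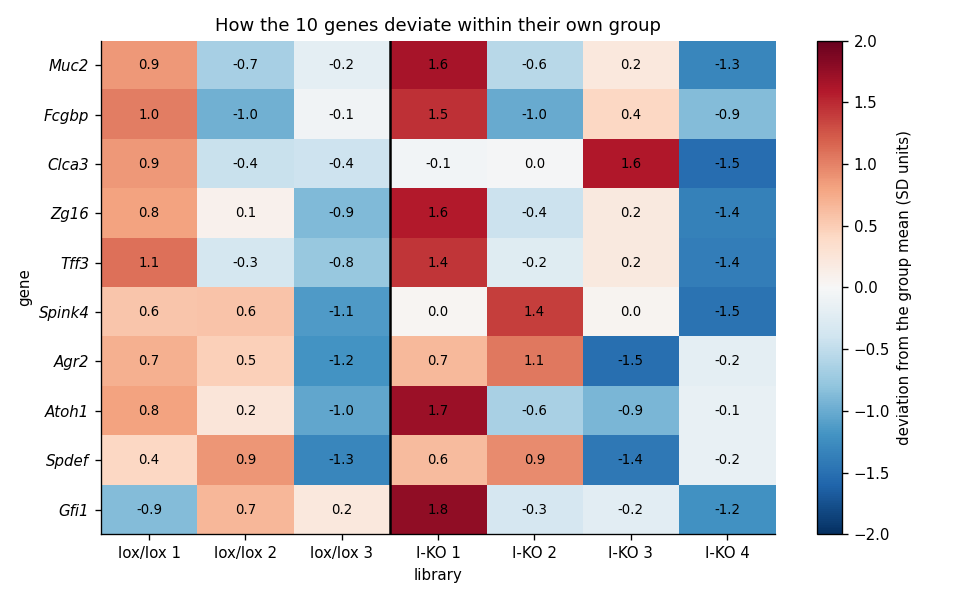
Deviation of each of the 10 genes from the mean of its own group, in SD units, for each library (columns; lox/lox left and I-KO right of the black line), red above and blue below the mean. I-KO 1 is high for Muc2 (1.65), Zg16 and Tff3, I-KO 4 is low for Clca3 (-1.52) and Spink4, and I-KO 3 is low for Agr2 and Spdef but high for Clca3.

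Taken relative to Muc2, Tff3 and Zg16 varied less between libraries, and Spink4 and Agr2 did not. The Tff3 level as a percentage of Muc2 in the same library had a CV of 4.82%, where Tff3 itself had 9.72%, and the ratio of Zg16 had 8.34%, where Zg16 had 16.7%. In contrast, the ratio of Spink4 to Muc2 had a CV of 24.7% and that of Agr2 16.0%, both above the CV of the gene itself, 22.5% and 14.4%. Ratios of Atoh1 (8.3%), Spdef (14.65%) and Gfi1 (10.42%) also lay above the CV of the gene, 6.47%, 9.50% and 9.02%. For Fcgbp the ratio had 5.12%, where the gene had 6.64%, and for Clca3 the values were 9.43% and 9.48%.

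The measured genes whose deviations followed the mean of the 10 most closely were Lman2, a cargo lectin of the early secretory pathway, with an r of 0.995, and Bri3, Ndufa11 (a subunit of mitochondrial complex I), Tubb2a (a beta tubulin) and BC017612, each with an r of 0.992 over the 7 libraries. Of 13389 genes compared, 471 had an r above 0.9. Among the 10 genes themselves the r to this mean, of which each is a part, ran from 0.466 for Clca3 to 0.969 for Zg16.

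Per length of its exons, Zg16 was the most abundant of the 10 transcripts, with a mean of 2313 adjusted CPM per kb over all libraries (1887 to 3013), followed by Tff3 with 1611 (1434 to 1867). The lowest library of Zg16 lay just above the highest of Tff3. Spink4 with 500 (355 to 697), Fcgbp with 442 (412 to 485) and Clca3 with 405 (350 to 469) came next, and their ranges overlapped. Agr2 with 168 (130 to 199) and Muc2 with 162 (139 to 190) were neighbours that overlapped as well. Spdef with 5.38 (4.57 to 6.02) and Atoh1 with 5.12 (4.77 to 5.63) overlapped, and Gfi1 with 1.63 (1.43 to 1.82) was below both. The exon length of Muc2, 7127 bases in GENCODE M21, comes from fragmentary gene models, so its place in this order is uncertain.

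Beyond the 10 genes, 123 other genes of mucus making and secretory fate were tested, and 0 passed the adjusted threshold (smallest limma adjusted p = 0.791). At an unadjusted limma p below 0.05 there were 9, or 7.32%, beside 4.74% of all genes.

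The next list covered folding and stress in the endoplasmic reticulum. It holds chaperones and oxidoreductases, which fold secreted proteins such as MUC2 and serve every secretory cell. It also holds regulators such as Xbp1 and Ern1 and transport genes such as Kdelr2. Of its 25 genes, 19 had lower means in I-KO (76.0%, beside 49.4% of all genes). The median of their log2 fold changes was -0.18, and it was -0.08 without I-KO 4 and -0.10 without lox/lox 2. At an unadjusted limma p below 0.05, 5 of the 25 were lower (20.0%, beside 2.42% of all genes) and 0 were higher. None of the 25 passed the adjusted threshold, each with an adjusted p of at least 0.954. Xbp1, the transcription factor of the unfolded protein response, was 302.43, 307.95 and 310.93 in lox/lox and 258.73, 283.42, 238.30 and 258.03 in I-KO. Its groups did not overlap, and the log2 fold change was -0.24 ± 0.08 (SE; limma unadjusted p = 0.0172). Hsp90b1, the chaperone with the highest level on this list, was 844.20, 1004.41 and 796.97 in lox/lox and 838.69, 788.24, 710.82 and 556.52 in I-KO, with a log2 fold change of -0.29 ± 0.15 (SE; limma unadjusted p = 0.0790). The other 4 below 0.05, named after their values were seen, were Sdf2l1, Serp1, Hspa5 and Pdia6, with log2 fold changes of -0.29, -0.19, -0.38 and -0.24. The count of 5 changed with the libraries in the fit: it was 0 without lox/lox 2, 1 without lox/lox 1, 3 without I-KO 3 or I-KO 4, 9 without I-KO 1, and 0 without both lox/lox 2 and I-KO 1, the libraries with the highest acinar sums. Each of these fits has fewer mice. Over all genes, the count lower at this p was 324 in the fit of all mice and 208 without lox/lox 2. It was 229 without lox/lox 1, 256 without I-KO 3, 507 without I-KO 4, 327 without I-KO 1 and 212 without both. The log2 fold change of Xbp1 was -0.24 without lox/lox 2 and -0.24 without both, and that of Hspa5 was -0.31 and -0.38. Without both, Sdf2l1 was -0.28, Pdia6 was -0.23 and Serp1 was -0.16, and the median of the list was -0.16. Without I-KO 4, Xbp1 was -0.24, Hspa5 -0.25, Sdf2l1 -0.23, Pdia6 -0.19 and Serp1 -0.19. These 5 genes were picked by their p in the main fit. Plasma cells also depend on these chaperones, and the 6 measured B and plasma cell genes summed to 3161 to 4479 in lox/lox and 2605 to 4275 in I-KO. The part of acinar and plasma cells in these values was not tested.

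The enzymes that build and cap mucin O-glycans had 18 lower and 7 higher means among 25 tested genes, and the median of their log2 fold changes was -0.06. The 18 lower means were 72.0% of the list, beside 49.4% of all genes. Below an unadjusted limma p of 0.05 there were 2, both lower (8.0%, beside 2.42% of all genes). B3gnt7, which extends glycan chains with N-acetylglucosamine, was 106.29, 100.42 and 88.71 in lox/lox and 69.02, 69.22, 74.47 and 45.31 in I-KO. All 4 I-KO libraries lay below the 3 controls, and the log2 fold change of -0.62 ± 0.17 (SE) had an unadjusted p of 0.0045 and an adjusted p of 0.791 in limma. Without I-KO 4, its lowest library, the log2 fold change was -0.47 (limma adjusted p = 0.489). Leaving out each other library gave -0.57 to -0.70. Galnt3, which starts O-glycosylation and was named after its values were seen, was 33.92, 32.04 and 33.32 in lox/lox and 29.12, 27.85, 25.27 and 27.24 in I-KO, with a log2 fold change of -0.27 ± 0.08 (SE; limma unadjusted p = 0.0090, adjusted p = 0.830). The groups did not overlap for this gene either. St3gal4, a sialyltransferase and the gene with the highest level on the list, was 1502.18 to 1545.43 in lox/lox and 1343.21 to 1764.50 in I-KO, a log2 fold change of -0.05.

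Of 34 further goblet-enriched genes tested, 15 were higher and 19 lower around a median of -0.01 on the log2 scale, and 1 had an unadjusted limma p below 0.05. This was Bcas1, at 19.30, 17.33 and 16.03 in lox/lox and 20.50, 19.68, 20.82 and 20.83 in I-KO, a log2 fold change of 0.21 ± 0.09 (SE; limma unadjusted p = 0.0341, adjusted p = 0.954). All 4 I-KO libraries lay above the controls. Muc13, a membrane mucin of the brush border and the gene with the highest level on this list and among the measured membrane mucins, was 5642.49 to 6509.68 in lox/lox and 4471.36 to 6929.19 in I-KO, with a log2 fold change of -0.11 (limma adjusted p = 0.963). Muc4, the other membrane mucin tested, was 78.38 to 102.26 in lox/lox and 66.29 to 109.36 in I-KO.

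Of 32 tested genes of Notch signalling and secretory fate, 16 were higher and 16 lower, with a median log2 fold change of 0.0042. The gene with the smallest limma p, Notch3, a receptor found mainly in mural cells of vessels, was 5.68, 6.09 and 6.01 in lox/lox and 9.0, 6.68, 7.10 and 7.15 in I-KO (log2 fold change 0.29 ± 0.10 (SE), unadjusted p = 0.0224, adjusted p = 0.954). I-KO 1, which had the highest Notch3, was also the highest library for all 6 smooth muscle genes. Elf3, the ETS factor of the epithelium with the highest level on this list, was 439.33 to 574.72 in lox/lox and 385.76 to 545.39 in I-KO. Hes1, the Notch target that represses Atoh1, was 24.14, 26.72 and 23.97 in lox/lox and 26.68, 28.17, 23.41 and 24.51 in I-KO, and Dll1, the Notch ligand of secretory progenitors, was 52.84 to 65.12 and 56.61 to 63.56. Both were named after their values were seen, and their groups overlapped.

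**Figure D5:**
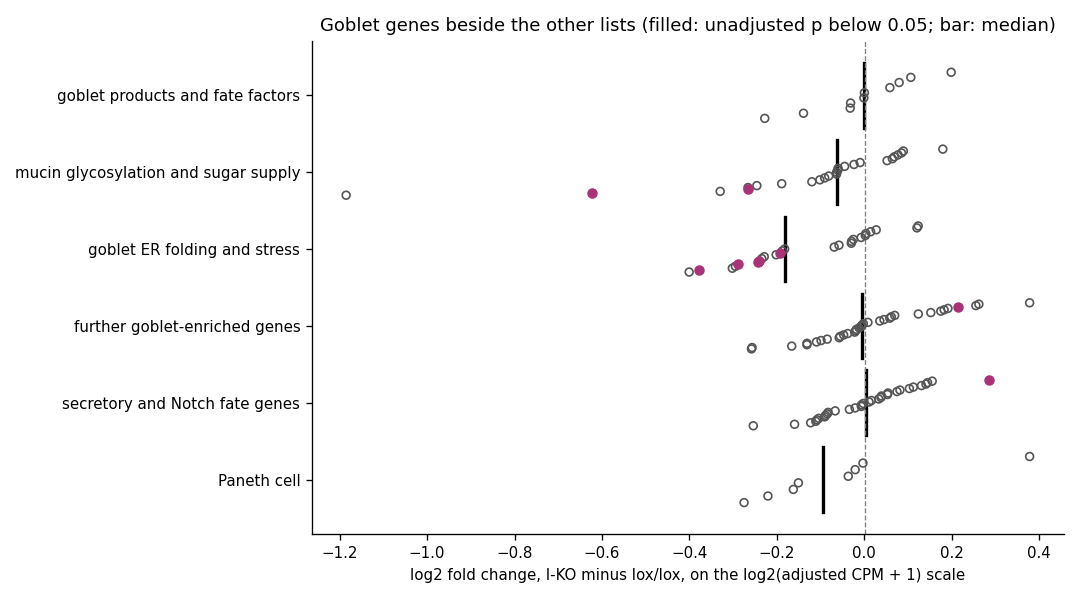
Log2 fold change (I-KO minus lox/lox, on the scale of log2(adjusted CPM + 1)) of each tested gene by list, with filled points for an unadjusted limma p below 0.05, a black bar for the median of the list and a dashed line for the median of all genes (0.0017). The 10 goblet products and fate factors are centred on 0 (median -0.0004), and the folding genes lie lower (median -0.18, and -0.08 without I-KO 4).

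Among related genes, Spink3 was 607.11 to 656.24 in lox/lox and 510.56 to 914.11 in I-KO, and had the highest level and the smallest limma p (0.239) of the 4 relatives of goblet genes that were tested. Of the immune signals known to act on goblet cells, 5 were measured and 0 passed the test. Il22ra1, the receptor chain for IL-22, had the smallest limma p, 0.172, at 190.32 to 216.56 in lox/lox and 191.24 to 266.67 in I-KO. Il33, an alarmin that drives type 2 responses, was 22.24 to 28.78 and 18.87 to 26.48.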

How the data were processed

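Duodenal RNA of 3 Ppara lox/lox and 4 Ppara I-KO mice was extracted with TRIzol and sequenced as TruSeq stranded mRNA libraries in single reads of 100 bases. The authors deposited a table of signal values, counts scaled to an adjusted library size (CPM), to 2 decimals for 14795 genes. The submitters' processing notes name FastQC 0.11.2, TopHat2 2.0.13, Picard 1.80, HTSeq 0.6.1, edgeR and mm10, and the annotation is not given in the sources used here. Columns sum to between 969589 and 1098618.

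A filter kept 13399 genes (value above 1 in 3 or more libraries), whose log2(value + 1) entered a limma 3.58.1 fit (R 4.3.3) on genotype alone, and p-values were adjusted by the Benjamini-Hochberg method at 0.05. The study's model was for counts. The low values were whole reads within the rounding of the table for 95.3% to 100% per library. A stricter limit set here, 95% of them within 0.1 of a read, was met in only 2 libraries, and rounding alone can exceed it, so leaving out tests on counts was a choice. Single genes were compared by exact permutation. Coordinates and exon lengths come from GENCODE M21, and promoters from RefSeq (GRCm38.p6).

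The 10 genes and all lists were chosen with earlier results of these data known. The lists beside them were of glycosylation, endoplasmic reticulum folding, further goblet genes, Notch and fate genes, Clca, mucin and related families, immune signals, and markers of cell types. Beyond the 10, the genes named are the one with the smallest p and the one with the highest level on a list, the 5 most alike, and genes needed beside another cell type. Each library is 1 mouse per the labels' biological replicate. Alternatives were other scalings, no filter, a pseudocount of 0.5, unadjusted p, the replicate block and leaving libraries out. Scaling to epithelial markers and leaving out the libraries with most acinar transcripts were chosen after seeing the data. Other steps used Python 3.11.15 with scipy 1.17.1, pandas 2.3.3, numpy 2.4.6 and matplotlib 3.10.9.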

Additional observations from a re-analysis of the deposited data

Results flagged for a closer look

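The summed pancreatic acinar genes of the I-KO group were 543.6 in I-KO 1 and 99.90 to 124.0 in I-KO 2 to 4. The gap between I-KO 1 and its neighbour, divided by the range of all 4 libraries, was 0.946 and passed Dixon's 95% critical value for 4 samples. This was 1 of 21 quantities searched, of which chance marks about 1 in 20. Of the 19 measured acinar genes, 18 were highest in I-KO 1. Zg16, the goblet gene that the pancreas also makes, was highest in I-KO 1, and the same library was highest for Muc2, Fcgbp, Tff3 and Atoh1.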

How the results depend on the processing

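No member passed the adjusted threshold under any of 14 other fits (smallest limma adjusted p 0.640), and of their 140 member values 117 kept the direction and 23 did not. The signs that changed were of small values: on the log2 scale Muc2 was 0.0359 and Fcgbp 0.0264 with the replicate block (the same as without I-KO 4), Clca3 was -0.0005 with median-of-ratios size factors and -0.0371 with column totals, and with the epithelium sum Clca3 was -0.12, Zg16 -0.04, Tff3 -0.0611 and Spdef -0.0035. Leaving out libraries, log2 fold changes ranged from -0.12 to 0.0359 for Muc2, -0.0471 to 0.0473 for Fcgbp, -0.0722 to 0.0688 for Clca3, -0.0416 to 0.18 for Zg16, -0.0058 to 0.13 for Tff3 and -0.0796 to 0.0009 for Atoh1; without lox/lox 2 and I-KO 1 together Clca3 was -0.0277, Zg16 -0.0315 and Tff3 -0.0292. Spink4, Agr2, Spdef and Gfi1 kept their direction without each library, from 0.03 to 0.35, -0.33 to -0.14, 0.03 to 0.16 and -0.19 to -0.11. An unadjusted limma p below 0.05 was reached by 5 of the 140 values, those of Agr2 with the block, with the epithelium sum and without lox/lox 3, of Spink4 with the block, and of Gfi1 without I-KO 1. Of all genes, 1016 of 13399 reached it with the block and 595 of 13387 with the epithelium sum. The counts were 690 of 13333 without lox/lox 3 and 652 of 13325 without I-KO 1, beside 635 of 13399 in the main fit. What moved the 5 member values was not tested. Other list genes called were 0 under all fits, and 9 at unadjusted p. The count of folding genes lower at unadjusted p, 5, was 12 with the epithelium sum and 0 to 9 without single libraries. Over all genes this count was 324 of 13399 in the main fit and 554 of 13387 with the epithelium sum. It was 208 to 507 without single libraries. The median of the folding genes, -0.18, was -0.30 with the epithelium sum and -0.09 with the block. The median of all genes was -0.108 and 0.0018 in these 2 fits.

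Libraries with the same replicate number did not deviate together (r of -0.01, 0.18 and -0.01), so the numbers were not taken as pairs, and I-KO 4 has no partner. The block thus takes no information on genotype from I-KO 4: genes at unadjusted p went from 635 to 1016 with the replicate block and to 913 without I-KO 4, the folding genes from 5 to 3 in both, and Muc2 (0.0359), Fcgbp (0.0264) and Spink4 (0.35) had the same log2 fold change in both. With the block, unadjusted limma p was 0.0495 for Agr2 and 0.0321 for Spink4.

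The planned count tests with edgeR and DESeq2 were not run: 5 libraries missed the limit set here for whole reads, although the values fitted whole reads within rounding, so how a count test would call these genes is not known. Also not run was the exact test without single libraries, where too few splits remain to reach 0.05. The CV of the secreted products, 6.64% to 22.5%, was above their counting error of 0.31% to 1.36%, whereas that of Atoh1 and Gfi1 was close to it. What limits the precision was not tested.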
